A study of Homo sapiens with 6 samples.

Results

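Cytotoxic granule genes encode the proteins with which killer lymphocytes destroy target cells. They were followed here in the single deposited comparison of a study of HEK293T cells. The genes were taken by name from the table, as the granzymes GZMA, GZMB, GZMH, GZMK and GZMM, perforin (PRF1), granulysin (GNLY), NKG7, serglycin (SRGN) and cystatin F (CST7). Of these 10 genes, 8 have a row among the 33644 of the table and 7 have an adjusted p. GZMA and CST7 were not analysed here.

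The labels describe 2 groups of 3 samples each, alt-LAMA3 KO cells (a HEK293T derivative) and HEK293T WT cells. All samples were grown in the same serum-supplemented medium, with no treatment and at day 0. HEK293T is a line from human embryonic kidney that carries the SV40 large T antigen. The labels do not say whether the knockout line is 1 clone or whether samples came from separate cultures, so the spread behind p-values may be technical. The table gives 1 row per gene with a mean normalized count over all libraries, a log2 fold change and its standard error (SE). Its header names neither group, and it has no value per sample. Below, a positive log2 fold change means higher in what is called the numerator group, relative to the denominator group. Which of these is the knockout is not known, so nothing is said on the knockout's effect.

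Killer lymphocytes, that is cytotoxic T cells and natural killer (NK) cells, keep their weapons in secretory lysosomes and release them onto a bound target. Perforin forms pores in the target membrane and granulysin disrupts membranes of microbes and tumour cells. Granzymes are serine proteases that enter through these pores and cleave proteins of the target, each with its own cleavage preference. Kidney epithelial cells are not known for such granules.

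The table held most markers of T lymphocytes at high levels and few HEK293 markers. The mean normalized count was 27074 for CD8A, the co-receptor chain of cytotoxic T cells, and 1.83 for CD4, the co-receptor of helper T cells, in the authors' deposited table. A low mean need not mean a silent gene, since CD5, also a T lymphocyte marker, had 1.87 beside 13003 for CD3E there. CD40LG, a ligand typical of activated helper T cells, had 449 and was lower at -1.24 on the log2 scale (SE 0.13, adjusted p = 3.94e-20) according to the authors' deposited table. Of 9 HEK293 markers, 0 reached a mean of 72.0 (5 per 1000000 of all means summed), and 3 were listed at 0. LAMA3, which names the knockout, had a log2 fold change of -0.62 (SE 0.69), with an adjusted p of 0.578 and a mean of 18.98, in the authors' deposited table. It gives no check of the labels. Means shared by at least 100 genes took 9 values, 3 with a positive log2 fold change, 3 with a negative one and 3 with none, where 6 labelled samples would give 6. The levels below may therefore include libraries outside the comparison. Which cells each library came from cannot be told from the table, and the labelled cell type is not borne out by its markers.

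Sequences before a transcript start are shown for the abundant genes GNLY, PRF1, NKG7 and GZMB. The first 3 of these were called lower in the numerator group and GZMB was not. GZMH, the neighbour of GZMB with the lowest level of the granule genes, is also shown. Each is the 150 bases before the earliest protein-coding transcript start that GENCODE 29 places in the RefSeq promoter window (GRCh38.p14). For GNLY, whose annotated span is chr2:85685175-85698854, that start is internal, so the window lies within the gene and not upstream of all of it. Capitals mark matches, on either strand, to TGTGGT (the RUNX core), GTGTGA (a T-box half-site) or GGAAGT (an ETS site). No matches overlapped.
GNLY, chr2:85694141-85694290, plus strand: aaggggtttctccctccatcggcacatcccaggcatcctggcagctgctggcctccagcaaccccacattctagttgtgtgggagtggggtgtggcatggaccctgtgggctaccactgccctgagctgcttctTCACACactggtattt
PRF1, chr10:70602776-70602925, minus strand: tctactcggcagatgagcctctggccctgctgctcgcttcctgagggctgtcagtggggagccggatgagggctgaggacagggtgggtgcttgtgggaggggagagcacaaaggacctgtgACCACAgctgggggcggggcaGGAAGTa
NKG7, chr19:51372716-51372865, minus strand: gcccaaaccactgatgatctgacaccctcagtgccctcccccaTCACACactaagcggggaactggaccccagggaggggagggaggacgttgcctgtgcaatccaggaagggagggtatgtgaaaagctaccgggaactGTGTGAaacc
GZMB, chr14:24634268-24634417, minus strand: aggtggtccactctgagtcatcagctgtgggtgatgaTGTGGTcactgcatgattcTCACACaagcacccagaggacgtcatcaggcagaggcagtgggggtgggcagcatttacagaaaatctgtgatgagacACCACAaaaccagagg
GZMH, chr14:24609700-24609849, minus strand: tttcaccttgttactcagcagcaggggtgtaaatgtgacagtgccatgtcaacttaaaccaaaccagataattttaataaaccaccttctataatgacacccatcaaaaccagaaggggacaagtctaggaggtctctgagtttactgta

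The 5 windows differed in the motifs they held. GZMB had 2 RUNX matches and 1 T-box match, NKG7 had 2 T-box matches, GNLY had 1 T-box match, and PRF1 had 1 RUNX and 1 ETS match. GZMH had 0 matches to any of them. Among 14470 windows of the same length and placement, 5.44% held the RUNX letters, 5.11% the T-box letters and 14% the ETS letters. A match describes letters only and is no evidence of binding.

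The granule genes spanned a wide range of levels. Per kilobase of exon, the order of mean normalized counts was GNLY at 3924, PRF1 at 1504, GZMB at 963, NKG7 at 833, GZMK at 77.4, SRGN at 63.2, GZMM at 42.7 and GZMH at 0.508. GNLY, PRF1, GZMB and NKG7 thus formed an upper set and GZMK, SRGN and GZMM a lower one, with GZMH last. No spread over samples can be given for a level, so whether neighbours in this order differ beyond their spread is not known. Whether a low mean covers all reads of a gene is not known either, as the T lymphocyte marker CD5 had 1.87. GZMK and SRGN change places when coding length is used, at 153 and 163 per kilobase.

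**Figure D1:**
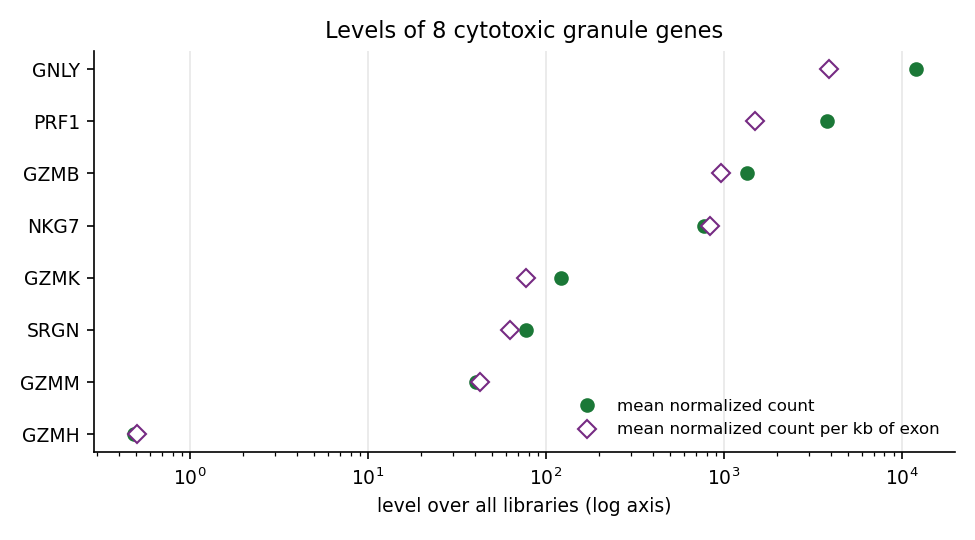
Mean normalized count over all libraries (circles) and the same per kilobase of exon (diamonds) for the 8 granule genes, on a log axis. GNLY, PRF1, GZMB and NKG7 are the 4 highest on both scales, and GZMH lies last at 0.508 per kilobase.

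GNLY, PRF1, NKG7 and GZMM were lower in the numerator group, and no granule gene was higher. All 7 genes with an adjusted p had a log2 fold change below 0, with a median of -0.98, where the median of all 13957 genes with an adjusted p was 0.00. The 4 of 7 called lower at an adjusted p under 0.05 stand beside a background of 14.8% called lower among all genes tested and 21.6% among those with a mean of at least 72.0. Of all genes tested, 14.7% were called higher and 29.5% in either direction. The genes were listed with results of these data known, so the count is a description. In bulk RNA, fewer cells of a type and less RNA per cell cannot be told apart.

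Granulysin is a saposin-like protein that lyses membranes. GNLY (ENSG00000115523.16, chr2:85685175-85698854, plus strand) was the most abundant of the granule genes, with a mean normalized count of 11971, rank 148 of the table. Its log2 fold change was -2.14 (SE 0.28, adjusted p = 3.99e-13), a 4.40-fold lower level in the numerator group, in the authors' deposited table. Of the 147 other tested genes with at least its mean, 0 had a lower log2 fold change, and the lowest of them was at -0.81. The SE of GNLY was also above that of each of the 500 tested genes nearest to it in mean, whose median SE was 0.05 on the log2 scale. Its 95% interval ran from -2.68 to -1.59.

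Perforin is the pore-forming protein without which granzymes do not reach the target's cytosol. PRF1 (ENSG00000180644.7, chr10:70597348-70602775, minus strand) had a mean normalized count of 3811 in the authors' deposited table. Its log2 fold change there was -1.08 (SE 0.07, adjusted p = 3.29e-58). That is a 2.11-fold lower level in the numerator group, with a 95% interval of -1.21 to -0.95 on the log2 scale. Its SE was near the median of 0.06 of genes of like level, so PRF1 varied about as much as its peers. Of the 715 other tested genes with at least its mean, 13 had a lower log2 fold change, and GNLY had the lowest.

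The fall of GNLY was larger than that of PRF1, and their 95% intervals did not overlap. This holds for the deposited SEs, of which that of GNLY was high for its level, and the difference was not tested. NKG7, a membrane protein of the granule needed for efficient degranulation in mice, had a mean normalized count of 779 (ENSG00000105374.9, chr19:51371606-51372715, minus strand). Its log2 fold change was -0.89 (SE 0.08, adjusted p = 2.98e-24), 1.85-fold lower in the numerator group, in the authors' deposited table. The interval of NKG7, from -1.05 to -0.72, overlapped that of PRF1.

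Serglycin is the proteoglycan whose sulfated sugar chains hold granzymes and perforin in the granule core. SRGN (ENSG00000122862.4, chr10:69088106-69104811, plus strand) had a mean normalized count of 77.1 in the authors' deposited table. Its log2 fold change there was -0.98 (SE 0.52, adjusted p = 0.153). Its change was thus close in size to that of PRF1, but with an interval from -1.99 to 0.04 it did not pass the threshold. Whether the low mean of SRGN covers all reads of the gene cannot be told from the table.

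**Figure D2:**
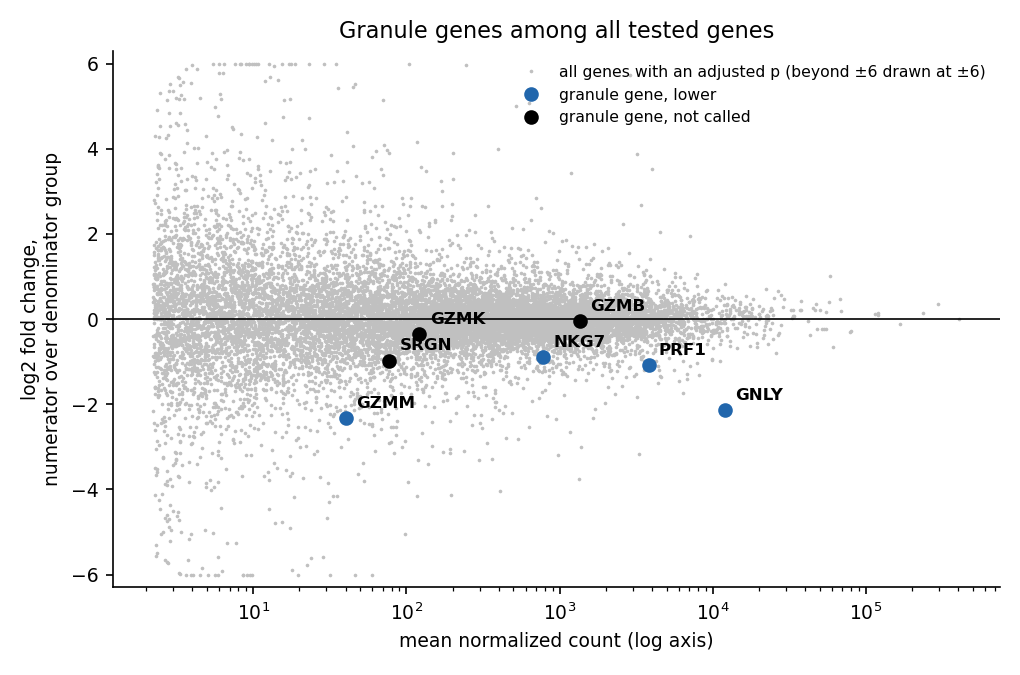
Log2 fold change (numerator over denominator group) against mean normalized count (log axis) for all 13957 genes with an adjusted p in grey, with the 7 granule genes marked and called ones in blue. GNLY at -2.14 lies below every other gene of at least its mean, while GZMB at -0.05 lies in the middle of the cloud.

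The granzymes differed widely in level, with GZMB far above the others. GZMB, which cleaves after aspartate and triggers caspases, was the most abundant (ENSG00000100453.12, chr14:24630954-24634267, minus strand). Its level was a mean normalized count of 1358 in the authors' deposited table. GZMK, a trypsin-like granzyme, had 121 (ENSG00000113088.5, chr5:55024253-55034570, plus strand) and GZMM, which cleaves after methionine or leucine, had 40.3 (ENSG00000197540.7, chr19:544034-549924, plus strand) in the same deposited table of the authors. Per kilobase of exon, GZMB was 12.4 times GZMK and 22.6 times GZMM, and GZMK was 1.81 times GZMM.

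GZMH, a chymotrypsin-like granzyme, had the lowest level, at a mean normalized count of 0.483 (ENSG00000100450.12, chr14:24606480-24609699, minus strand) according to the authors' deposited table. That is between 3.29 and 8.24 times the 9 shared lowest means, which would correspond to single reads. Its log2 fold change of -0.00 had an SE of 3.96 and no adjusted p, so no change was detectable at this depth. GZMH lies 21.3 kb from GZMB in the same cluster and on the same strand, yet GZMB stood 1895 times above it per kilobase of exon. Their longest coding transcripts were 79.7% identical over 837 aligned bases, with a longest shared run of 106 bases. Reads from such stretches could be assigned to either gene, so the level of GZMH is uncertain. A mean this low also need not mean a silent gene, given the low mean of CD5 above.

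Of the granzymes, GZMM was lower in the numerator group, and GZMB and GZMK did not pass the threshold. GZMM was at -2.33 on the log2 scale (SE 0.71, adjusted p = 0.00504), 5.03-fold lower in the numerator group, in the authors' deposited table. Its interval was wide, from -3.72 to -0.94. The call of GZMM was lost in a test against a 1.5-fold change (adjusted p = 0.229), where GNLY, PRF1 and NKG7 passed beside a background of 2.31%, and with errors widened by the spread of all statistics (adjusted p = 0.509).

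GZMB was at -0.05 on the log2 scale (SE 0.14) according to the authors' deposited table, with an adjusted p of 0.855. Its 95% interval with the deposited SE, from -0.32 to 0.22, leaves out a 1.5-fold change in either direction. That SE was high for its level, at percentile 91.2 of genes of like level, whose median SE was 0.085. Whether a 1.5-fold change is also left out with widened errors was not tested. GZMK was at -0.36 (SE 0.21, adjusted p = 0.214), with an interval from -0.77 to 0.06, in the authors' deposited table. GZMB and GZMK thus had intervals that included 0, and that of GZMM did not.

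Set against each other, GZMM minus GZMB was -2.28 (SE 0.72, 95% interval -3.70 to -0.86) and GZMM minus GZMK was -1.97 (SE 0.74, -3.43 to -0.52) on the log2 scale. GZMK minus GZMB was -0.31 (SE 0.25, -0.80 to 0.18), an interval that includes 0. These are 3 of the 6 pairs, and the other 3 contain GZMH with SEs from 3.96 to 4.02. The SEs of the differences treat the genes as independent, which genes of the same libraries need not be, and no test was made. GNLY and PRF1 were thus lower while GZMB, the granzyme with the highest level, was not.

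**Figure D3:**
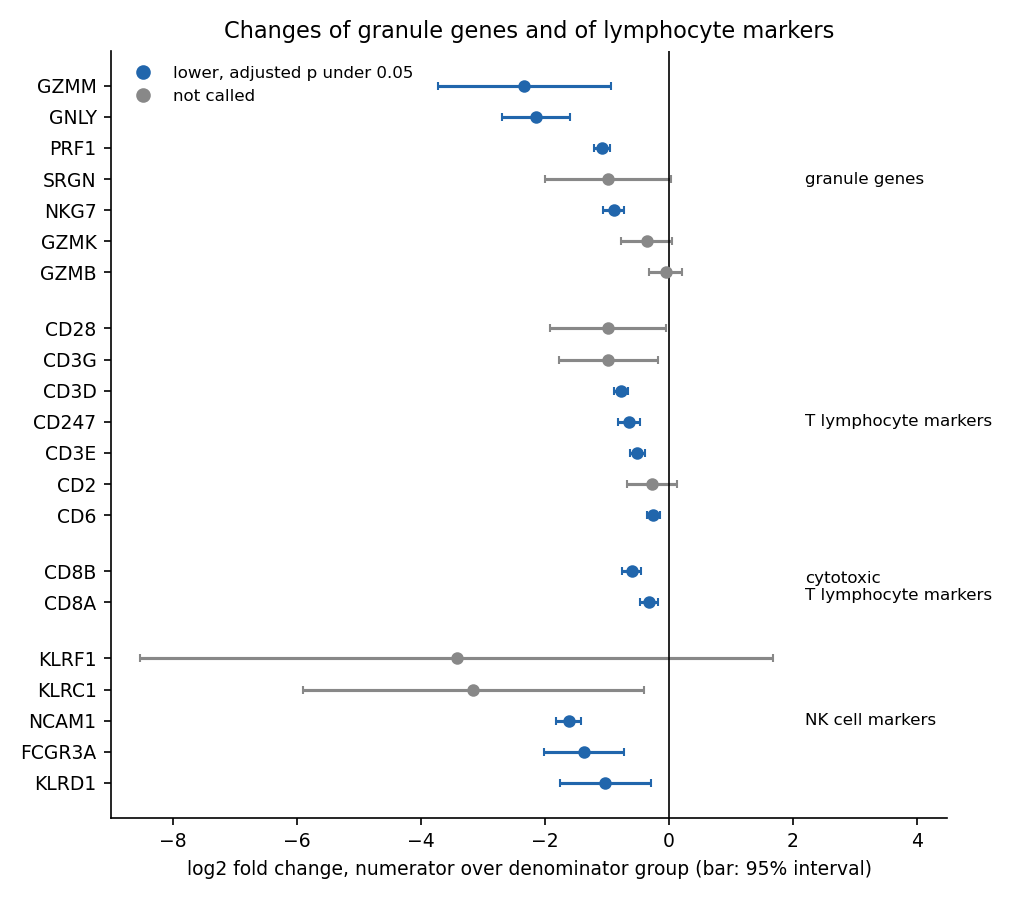
Log2 fold changes (numerator over denominator group) with 95% intervals for the 7 granule genes, 7 T lymphocyte markers, 2 cytotoxic T lymphocyte markers and 5 NK cell markers that have an adjusted p, in blue where called lower. GNLY lies below all T lymphocyte markers shown, and GZMB lies at -0.05. The 2 NK cell markers that were not called lie below GNLY, and the 3 called lower lie above it.

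T lymphocyte markers were also lower in the numerator group. Of 8 such markers, 7 had an adjusted p and 4 were called lower, with 0 higher and a median log2 fold change of -0.64, beside the 14.8% lower of all genes tested and the 21.6% of those with a mean of at least 72.0. CD3D, a chain of the T-cell receptor complex, was at -0.77 (SE 0.06, adjusted p = 2.66e-36), CD3E at -0.51 (SE 0.06, adjusted p = 4.26e-16) and CD8A at -0.32 (SE 0.07, adjusted p = 0.000140) according to the authors' deposited table. Their part in the change of the granule genes was not tested. PRF1 minus CD8A was -0.76 (SE 0.10) and GNLY minus CD8A was -1.82 (SE 0.29) on the log2 scale, and GZMB minus CD8A was 0.27 (SE 0.16). The size of these differences varied with the marker, since CD8A had the smallest fall of the 4 compared and CD3D the largest. Against CD3D, PRF1 was at -0.31 (SE 0.09), GNLY at -1.37 (SE 0.29), NKG7 at -0.12 (SE 0.10) and GZMB at 0.72 (SE 0.15).

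Centred on the median of the T lymphocyte markers, a choice made after seeing the data that shifts every log2 fold change up by 0.64, the same 4 genes were called lower, beside a background of 3.09%. On that scale GNLY was at -1.50 (adjusted p = 3.19e-07), PRF1 at -0.44 (adjusted p = 1.53e-10), NKG7 at -0.25 (adjusted p = 0.00729) and GZMM at -1.69 (adjusted p = 0.0336). The shift was treated as exact, so these adjusted p-values leave out its error. The 7 markers behind it ranged from -0.98 to -0.25. The call of NKG7 on that scale is therefore uncertain, as NKG7 minus CD3D was -0.12 (SE 0.10). GZMB turned to 0.59 and was called higher (adjusted p = 4.87e-05). This shift is the same for every gene, and 51.3% of all genes tested were called higher after it, so the sign of GZMB follows from its value near 0. GZMK turned to 0.29 and was not called.

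NK cell markers were lower too, at levels mostly far under those of T lymphocyte markers. Of 8 NK markers, 7 are in the table, 5 had an adjusted p and 3 were called lower, with 0 higher, beside 14.8% lower of all genes tested. The median log2 fold change of the 5 was -1.61, where that of the granule genes was -0.98. NCAM1, an adhesion molecule, had a mean normalized count of 576 in the authors' deposited table. It was at -1.61 on the log2 scale there (SE 0.10, adjusted p = 1.45e-53). FCGR3A, an Fc receptor, had 61.6 and -1.36 (SE 0.33), and KLRD1, a lectin-like receptor, had 40.8 and -1.02 (SE 0.38) according to the authors' deposited table. The activating receptor NCR1 was listed at 0, and KLRF1 had a mean of 3.43. The summed mean was 686 for the NK list against 35135 for the T lymphocyte list, and the part of NK cells in the granule genes' changes was not tested. Of 3 gamma-delta T lymphocyte markers, 1 was called lower and 0 higher. TRGC1, a constant gene of the gamma receptor chain, had 749 and was at -0.96 on the log2 scale (SE 0.10, adjusted p = 4.46e-22) according to the authors' deposited table. Its near-identical neighbour TRGC2 had 969 and was at 0.22 (SE 0.11, adjusted p = 0.110), and TRDC of the delta chain had 23.5 and was at -0.11 (SE 0.58) according to the authors' deposited table. Reads may be split between TRGC1 and TRGC2, so their values are uncertain, and the part of gamma-delta T cells was not tested.

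Markers of mast cells, neutrophils, B lymphocytes and monocytes had low levels, and some differed between the groups. The summed mean normalized count was 39.6 for 5 mast cell and basophil markers, 8.26 for the 3 neutrophil markers in the table, 32.3 for 5 B lymphocyte markers and 130 for 5 monocyte and macrophage markers. CPA3 and MS4A2 of the mast cell list and MS4A1 and PAX5 of the B lymphocyte list were listed at 0. MPO, the neutrophil peroxidase, had a mean of 6.63 in the authors' deposited table. CSF1R, a receptor of macrophages, was higher at 4.20 on the log2 scale (SE 0.76, adjusted p = 3.74e-07), CD79B of the B-cell receptor was lower at -2.37 (SE 0.43, adjusted p = 2.79e-07) and lysozyme (LYZ) was lower at -6.02 (SE 1.93, adjusted p = 0.00816) according to the authors' deposited table. Their means were 20.7, 26.8 and 4.06. The part of these cells in the granule genes' changes was not tested.

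Of 7 listed proteases that neighbour granzymes in the genome, 3 were analysed here, each at a low mean. ELANE, PRTN3, AZU1 and CFD were not analysed here. In the chromosome 14 cluster, CTSG (cathepsin G of neutrophils) was listed at 0 and CMA1, the mast cell chymase, had a mean normalized count of 15.5 and stood at -1.52 on the log2 scale (SE 0.54, adjusted p = 0.0200) according to the authors' deposited table. PRSS57, a protease gene of the chromosome 19 region that holds GZMM, had 19.4 and -1.91 (SE 0.52, adjusted p = 0.00142) according to the authors' deposited table. Each had a mean under 72.0. As with GZMM, both calls were lost against a 1.5-fold change (adjusted p = 0.190 for PRSS57 and 0.904 for CMA1) and with widened errors (0.395 and 0.664). The coding genes next to GZMM, chosen by position after seeing the data, did not share its fall. CDC34, a ubiquitin-conjugating enzyme 1.94 kb away, was at 0.37 (SE 0.46, adjusted p = 0.632), and BSG (basigin) 21.4 kb away was at 0.35 (SE 0.04, adjusted p = 1.39e-21) according to the authors' deposited table.

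Among 10 tested genes that process and sort granzymes, 2 were higher, 2 were lower and 6 did not pass, with a median log2 fold change of -0.24. That is 20% in each direction, near the 14.7% higher and 14.8% lower of all genes tested. Of the 10 genes, 8 had a mean of at least 72.0, a level at which 21% of tested genes were higher and 21.6% lower. CTSC, the dipeptidyl peptidase that activates granzymes, was at 0.24 (SE 0.06, adjusted p = 0.000689), and GNPTAB, which makes the mannose 6-phosphate tag, at 0.58 (SE 0.18) according to the authors' deposited table. IGF2R, a receptor for that tag, was at -0.36 (SE 0.05), and CALR, a chaperone also found in the granule, at -0.67 (SE 0.06) according to the authors' deposited table. CTSC lost its call with widened errors (adjusted p = 0.344), as did GNPTAB (0.539), and none of these 4 passed against a 1.5-fold change.

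Genes of granule biogenesis and exocytosis had 8 members lower, 2 higher and 10 not passing of 20 tested, with a median of -0.27. The 40% lower and 10% higher stand beside 14.8% and 14.7% of all genes tested. Of the 20 genes, 19 had a mean of at least 72.0, a level at which 21.6% of tested genes were lower and 21% higher. The counts were 2 lower and 1 higher against a 1.5-fold change, beside 2.31% and 2.36% of all genes tested. Centred on T lymphocyte markers, where all genes shift up, 2 were lower and 8 higher, beside 3.09% and 51.3%. RAB27A, the GTPase that docks granules at the membrane, was at -1.25 (SE 0.13, adjusted p = 4.09e-20), and UNC13D, which primes docked granules for fusion, at -0.84 (SE 0.07, adjusted p = 9.64e-30) according to the authors' deposited table. The SNARE VAMP4 was at -0.64 (SE 0.23, adjusted p = 0.0217) according to the authors' deposited table. LYST, a regulator of lysosome size, was at 0.81 (SE 0.07, adjusted p = 8.52e-28), and SYTL3, a synaptotagmin-like protein, at 0.33 (SE 0.08) according to the authors' deposited table. RAB27A and UNC13D kept their calls against a 1.5-fold change and with widened errors, and VAMP4 did not.

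Of inhibitors of granzymes and proteins that protect the killer cell, 2 of 6 tested were called higher and 1 lower, while 3 did not pass. Among all genes tested, 14.7% were higher and 14.8% lower. Of the 6 genes, 5 had a mean of at least 72.0, a level at which 21% of tested genes were higher and 21.6% lower. The median log2 fold change of the 6 was 0.04. SERPINB6, an intracellular serine protease inhibitor, was at 1.66 (SE 0.38, adjusted p = 0.000116), LAMP2, a lysosomal membrane protein, at 0.13 (SE 0.04) and CTSB (cathepsin B) at -0.93 (SE 0.07, adjusted p = 7.61e-34) according to the authors' deposited table. SERPINB6 lost its call against a 1.5-fold change (adjusted p = 0.0984) and with widened errors (0.240), LAMP2 lost its call in both (1 and 0.380), and CTSB kept its call in both. SERPINB9, the inhibitor of granzyme B, was not analysed here. SERPINB1 was at -0.05 (SE 0.10, adjusted p = 0.786) according to the authors' deposited table.

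Enzymes that build the sugar chains of serglycin had 2 members higher, 3 lower and 6 not passing of 11 tested. That is 18.2% higher and 27.3% lower, beside 14.7% and 14.8% of all genes tested, and the median was -0.00. Of the 11 genes, 7 had a mean of at least 72.0, a level at which 21% of tested genes were higher and 21.6% lower. CSGALNACT1, which starts chondroitin chains, was at 1.29 (SE 0.11, adjusted p = 9.65e-28), and XYLT2, a xylosyltransferase, at 0.57 (SE 0.08) according to the authors' deposited table. The chain-elongating factors CHPF2 and CHPF were at -0.995 (SE 0.09, adjusted p = 3.81e-24) and -1.43 (SE 0.53, adjusted p = 0.0253), and the sulfotransferase CHST12 at -0.63 (SE 0.14) according to the authors' deposited table. CHPF and CHST12 lost their calls against a 1.5-fold change and with widened errors (adjusted p = 0.692 and 0.220 with the latter). XYLT2 lost its call against a 1.5-fold change only, and CSGALNACT1 and CHPF2 kept theirs in both.

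Substrates of granzymes had 4 members higher, 4 lower and 5 not passing of 13 tested, with a median of -0.06. That is 30.8% in each direction, beside 14.7% higher and 14.8% lower of all genes tested. Of the 13 genes, 11 had a mean of at least 72.0, a level at which 21% of tested genes were higher and 21.6% lower. The counts were 1 and 1 against a 1.5-fold change, beside 2.36% higher and 2.31% lower of all genes tested. Centred on T lymphocyte markers, 9 were higher and 1 lower, beside 51.3% and 3.09% of all genes tested. BID, which granzyme B cleaves to open mitochondria, was at -1.33 (SE 0.17, adjusted p = 3.96e-14), and DFFA, the inhibitor of the caspase-activated nuclease, at -0.91 (SE 0.20) according to the authors' deposited table. Of the gasdermins, pore formers that granzymes can switch on, GSDME was at 6.01 (SE 1.10, adjusted p = 4.24e-07) at a mean of 34.5, and GSDMB at 0.50 (SE 0.12, adjusted p = 0.000339) according to the authors' deposited table. HMGB2, a chromatin protein that granzyme A cleaves, was at 0.57 (SE 0.04) according to the authors' deposited table. With widened errors the calls of GSDME (adjusted p = 0.0720), GSDMB (0.297) and DFFA (0.195) were lost, while BID and HMGB2 kept theirs. These substrates act in the target cell, and their levels here are those of the sequenced cells.

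Of the transcription factors known for driving the cytotoxic programme, 4 were lower, 1 was higher and 2 did not pass of 7 tested, with a median of -0.63. All genes tested had 14.8% lower and 14.7% higher. The 7 factors each had a mean of at least 72.0, a level at which 21.6% of tested genes were lower and 21% higher. The counts were 1 lower and 1 higher against a 1.5-fold change, beside 2.31% and 2.36% of all genes tested. They were 2 lower and 3 higher when centred on T lymphocyte markers, where all genes shift up, beside 3.09% and 51.3%. EOMES, a T-box factor, had a mean of 166 and was at -1.25 (SE 0.18, adjusted p = 2.05e-10), ID2 was at -1.08 (SE 0.17) and BHLHE40 at -0.63 (SE 0.06) according to the authors' deposited table. RUNX3 was at -0.16 (SE 0.06, adjusted p = 0.0332), and PRDM1 was higher at 2.07 (SE 0.22, adjusted p = 9.58e-20) according to the authors' deposited table. The call of RUNX3 was lost with adjustment over every gene (adjusted p = 0.0501), centred on the median of all genes (0.0514), at a threshold of 0.01, against a 1.5-fold change (1) and with widened errors (0.728), and RUNX3 turned to 0.48 and was called higher when centred on T lymphocyte markers. ID2 (adjusted p = 0.0707) and BHLHE40 also lost their calls against a 1.5-fold change, while EOMES and PRDM1 kept theirs. Centred on T lymphocyte markers, BHLHE40 was at 0.01 and was not called (adjusted p = 0.872). TBX21, the T-box factor T-bet, had a mean of 0.669, too low for an adjusted p. Of the factors of naive and memory-like lymphocytes, KLF2 was lower at -3.18 (SE 0.15, adjusted p = 2.45e-101) and the other 3 of the 4 tested did not pass.

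**Figure D4:**
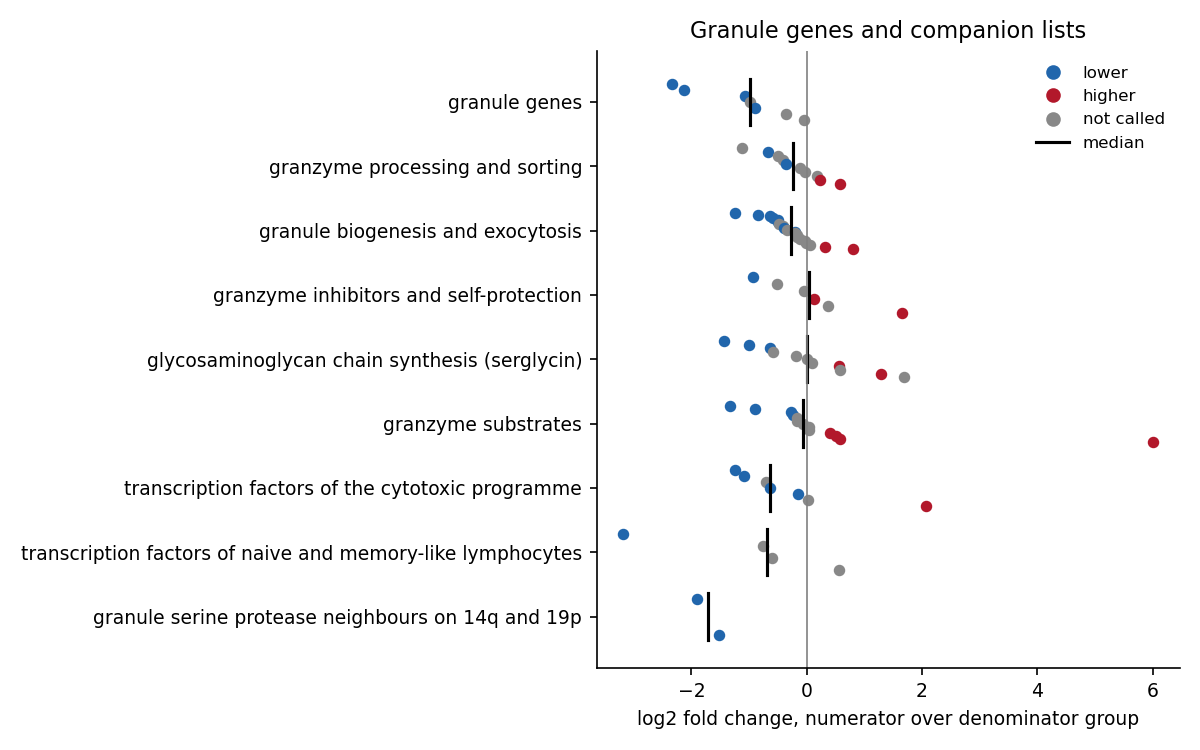
Log2 fold change (numerator over denominator group) of each tested member of the granule genes and of 8 companion lists, coloured by call, with the median as a bar. The granule genes have a median of -0.98, the exocytosis genes of -0.27 and the substrates of -0.06, with GSDME at 6.01 (its call was lost with widened errors).

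Over the 8 companion lists together, 25 of 73 tested genes were lower and 13 were higher. These shares of 34.2% and 17.8% stand beside 14.8% lower and 14.7% higher of all genes tested. Of the 73 genes, 58 had a mean of at least 72.0, and of all tested genes at that level 21.6% were lower and 21% higher. In a test against a 1.5-fold change, 7 were lower and 4 higher, beside 2.31% and 2.36% of all genes. Centred on the T lymphocyte markers, 9 were lower and 34 higher, beside 3.09% and 51.3% of all genes, a shift that the centring itself gives. EOMES, RAB27A, UNC13D, CTSB, BID, CHPF2 and KLF2 were called lower on both of these scales.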

How the data were processed

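SMARTer libraries were made from total RNA of HEK293T cells and their alt-LAMA3 KO derivative, per the labels' protocols. Per the submitters' processing notes, STAR, Salmon and hg38 are listed, with roles not given in the sources used here. Neither the model nor the contrast's direction is stated. The deposited table has, per the file headers, a mean normalized count (treated as a signal), a log2 fold change with its SE on the log2 scale, a Wald statistic (a score), a p-value and an adjusted p-value, as DESeq2 names them. It has no values per sample, so the planned fits with edgeR, other normalizations and left-out libraries were not run. The depth per library is not known, and genes with a mean under 2.22 had no adjusted p. SE at a mean of at least 72.0 had a median of 0.14.

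The 10 genes and all lists were chosen with earlier results of these data known. All granule genes are named. From each companion list, every called member is named if 5 or fewer, otherwise up to 3 per direction with the largest change. A substrate gene that this rule names is not reported here. SERPINB1, MPO, KLRF1 and the genes beside GZMM are named for role or position, after their values were seen.

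Gene IDs were matched without version to symbols (33483) and to GENCODE 29 (33582). Levels were divided by the union of exons. The threshold was an adjusted p of 0.05. Intervals are the log2 fold change with its SE at 95%. Promoters are from RefSeq (GRCh38.p14), which held 6 of the 10 genes. Calculations were checked on simulated data. Python 3.11.15, numpy 2.4.6, pandas 2.3.3, scipy 1.17.1, Biopython 1.88 and matplotlib 3.10.9 were used.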

Additional observations from a re-analysis of the deposited data

How the results depend on the processing

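The 4 granule genes called lower numbered 4 with adjustment over every gene with a p-value, over protein-coding genes, at a threshold of 0.01 and under both centrings. They numbered 3 when genes under a mean of 72.0 were left out, against a 1.5-fold change and with errors widened 2.03-fold, where GZMM was not tested in the first and lost its call in the other 2 (adjusted p = 0.229 and 0.509). GNLY, PRF1 and NKG7 passed in all 8 alternatives, with adjusted p-values up to 0.00319, 1.53e-10 and 0.00848. The alternatives that change only the genes adjusted over or the threshold reuse the deposited p-values. With p-values this small, they could hardly have changed these calls. Centring on T lymphocyte markers leaves out the error of its shift. With log2 fold changes centred on T lymphocyte markers, an alternative added after seeing the data, 1 granule gene was higher in place of 0, as GZMB turned to 0.59. Companion genes called lower numbered 25, and 7, 11 and 9 against a 1.5-fold change, with widened errors and centred on T lymphocyte markers. Those called higher numbered 13, and 4, 5 and 34 under the same alternatives. Under that last centring 51.3% of all genes tested were called higher. Per length, GZMB over GZMK was 12.4 with exon unions, 17.4 with the longest transcript and 12.0 with coding length. No paired analysis was possible because the table holds no values per sample. For the same reason no library could be left out, and whether 1 library sets a value, such as that of GNLY with its high SE, is not known.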
